A study of Mus musculus with 2 samples.

Results

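Heat shock proteins and their partner chaperones were examined in diabetogenic CD4 T cells from NOD.scid mice that had or had not received a tolerizing nanoparticle. The genes were chosen by name alone, as all rows whose symbol begins with Hspa, Hspb, Hsph, Hsp90, Hspd, Hspe, Dnaja, Dnajb, Dnajc, Bag or Cct and goes on to a digit, pseudogenes left out. The rule found 89 of 54532 gene rows. Of these, 73 had at least 20 counts over both libraries and are called measured, 9 had between 1 and 14 counts and 7 had none. The cells were BDC-2.5 T cells, whose transgenic T cell receptor recognises pancreatic beta cells. They were activated and transferred into NOD.scid recipients, a strain without T and B cells of its own. The treated group was given 1.75 mg of 2.5HIP-PLG, polymer nanoparticles that carry a hybrid insulin peptide, intravenously on day 1 after transfer, and the Untreated group received none. On day 6 spleens and lymph nodes were taken, and CD4 T cells negative for a Foxp3-linked green fluorescent protein were sorted as effector cells. Each group is 1 RNA library made from cells pooled over 4 mice, so differences between mice cannot be seen.

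Chaperones bind unfolded protein and help it to fold, to be moved or to be degraded. HSP70 proteins do this in cycles of ATP binding. J-domain proteins (Dnaja, Dnajb, Dnajc) bring them clients and start hydrolysis, and exchange factors such as the BAG and HSP110 proteins release the nucleotide. HSP90 matures kinases and receptors, among them the T cell kinase Lck, HSP60 with HSP10 folds proteins in mitochondria, and the CCT ring folds actin and tubulin. The heat shock factor HSF1 raises a subset of these genes under stress, and the unfolded protein response raises those of the endoplasmic reticulum (ER).

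The Hspa1a and Hspa1b promoters are shown because these neighbouring genes of stress-inducible HSP70 held the 2 highest counts among the members called lower below. Both lie on the minus strand of chromosome 17 (GRCm38), Hspa1a at chr17:34969190-34972156 and Hspa1b at chr17:34956436-34959238, each with a single exon. RefSeq holds promoters on GRCm38.p6 for 73 of the 89 members. In the 120 bases before each start, 119 are identical, and capitals mark GAANNTTC, a pair of units of the heat shock element that is its own reverse complement.
Hspa1a, chr17:34972157-34972276, minus strand: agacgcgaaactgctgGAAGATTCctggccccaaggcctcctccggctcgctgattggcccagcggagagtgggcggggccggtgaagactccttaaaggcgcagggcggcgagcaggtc
Hspa1b, chr17:34959239-34959358, minus strand: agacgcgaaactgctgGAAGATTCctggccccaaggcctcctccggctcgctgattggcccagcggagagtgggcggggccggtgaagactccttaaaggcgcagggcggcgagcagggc
That pair of units stood in 20.4% of 93 member promoters, each 300 bases long, and in 7.86% of 32851 promoters of all genes. By gene, 17 of 73 members and 2442 of 27025 genes held a match. The search was chosen after values were seen, and near copies such as Hspa1a and Hspa1b are not independent. The coding sequences of the pair are 99.4% identical, with 8 mismatches and 3 gap bases, and the longest identical run is 638 bases. Reads within such runs can only be divided between the pair by estimation.

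The stretch between Hspd1 and Hspe1 is shown because these divergent genes for HSP60 and HSP10 share it. Capitals mark 2 overlapping matches, 1 on each strand, of a heat shock element of 3 units, spelled GAA, TTC and GAA with 2 free bases (NN) between units and searched on both strands.
Hspe1, chr1:55088038-55088097, plus strand: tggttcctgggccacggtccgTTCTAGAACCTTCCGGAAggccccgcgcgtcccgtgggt
This longer motif was in 6.45% of member promoters, those of Hspd1, Hspe1, Hsph1 and Dnajb6, and in 0.603% of all promoters. Hspd1 and Hspe1 share the same bases, and in Hsph1 and Dnajb6 a single site counts in more than 1 promoter of the gene. The promoters of Hspa1a and Hspa1b held no match.

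The ER stress element, CCAAT and CCACG with 9 free bases (N) between them, was searched on both strands and found in the promoters of 3 members, which are shown as the ER chaperones whose counts are compared below. Capitals mark the match, and Hsp90b1 holds a further match on the other strand.
Hspa5, chr2:34772005-34772064, plus strand: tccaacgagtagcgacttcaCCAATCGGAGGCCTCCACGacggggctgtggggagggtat
Hsp90b1, chr10:86705610-86705669, minus strand: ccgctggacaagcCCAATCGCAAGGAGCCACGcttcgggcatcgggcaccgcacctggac
Dnajc3, chr14:118937807-118937866, plus strand: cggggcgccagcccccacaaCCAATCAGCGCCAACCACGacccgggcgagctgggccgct
It stood in 3.23% of member promoters and 0.119% of all promoters. These are matches of letters, and binding was not measured here.

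The library from 2.5HIP-PLG-treated mice held 22580648 counts and the untreated library 26036623. Ratios are scaled counts of 2.5HIP-PLG over Untreated, and the range in brackets is their exact 95% interval from counting error alone. There are no replicates behind any ratio, so p-values were not computed. A gene is called higher at a ratio of at least 1.5 and lower at its inverse or less, where the interval excludes 1. Less RNA per cell and fewer cells of a kind cannot be told apart in such pooled libraries. Of 8 CD4 T cell marker genes 0 were called, with ratios from 1.03 (Lck) to 1.36, and Cd4 had 41743 and 39739 counts. The intervals of all 8 lay above 1, beside 25.8% of all measured genes, and their summed counts had a ratio of 1.22 (1.21 to 1.23). Libraries also differed in the ribosomal RNA gene CT010467.1, which took 1.06% of untreated counts and 0.202% of treated ones, and in Foxp3, with 1157 treated and 389 untreated counts. Lars2 had 2214 and 14813 counts, and the Y-linked genes Ddx3y (51 and 279), Eif2s3y (45 and 222), Kdm5d (31 and 185) and Uty (21 and 74) were also lower after 2.5HIP-PLG. X-linked Xist was abundant in both libraries, with 11729 and 16181 counts (0.843, 0.823 to 0.863). The part of these differences in the chaperone results was not tested.

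Chaperone transcripts as a whole took almost the same share of both libraries, 1.03% after 2.5HIP-PLG and 1.02% without. Of the 73 measured members, 1 was called higher, 8 lower and 64 neither. The lower share, 10.96%, is near the 9.42% of all 13902 measured genes that were called lower. The higher share, 1.37%, is below the 5.32% called higher among all genes. Of 11813 measured protein-coding genes, 5.29% were higher and 7.74% lower. Among genes with at least 100 counts, 7 of 71 members (9.86%) and 6.62% of all genes were lower, and 1.41% and 4.45% higher. The median log2 ratio of the members was 0.03, beside 0.003 for all measured genes. No measured member had a ratio above 1.51 or below 0.476.

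**Figure D1:**
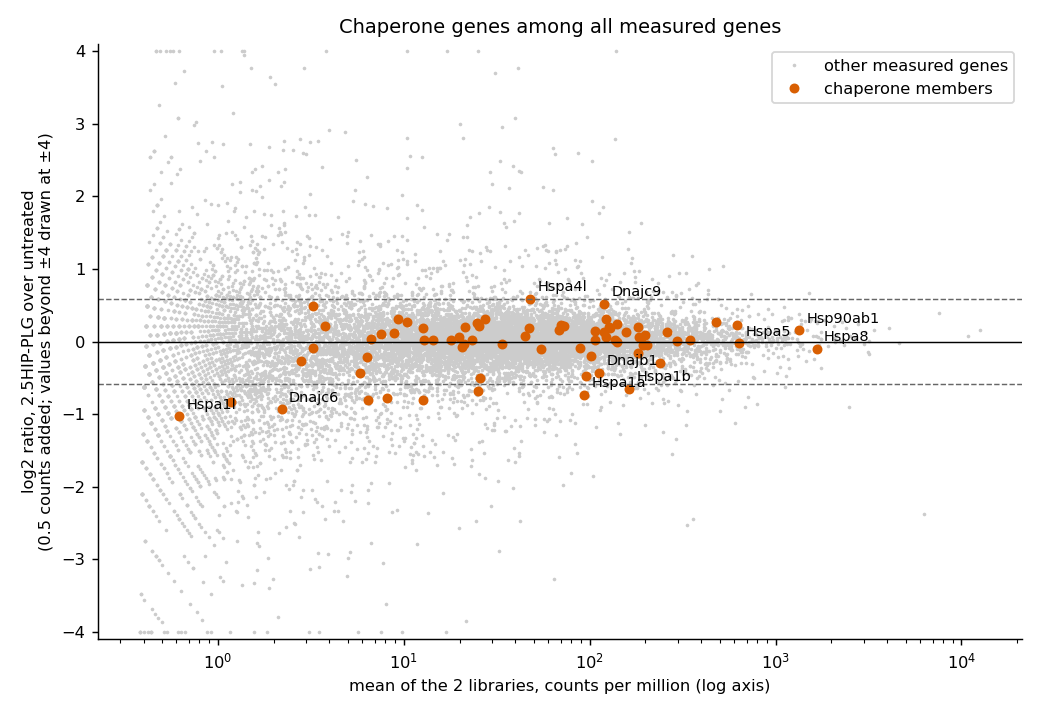
Log2 ratio of 2.5HIP-PLG over Untreated (vertical axis, 0.5 counts added) against mean CPM (counts scaled to library size) of the 2 libraries (log horizontal axis), with 73 chaperone members in orange, other measured genes in grey and the 1.5-fold lines dashed. Most members lie between the dashed lines. The 8 members called lower, among them Hspa1a, Hspa1b and Dnajc6, lie below them, as does Hspa1l, and Hspa4l lies at the upper line.

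Smaller differences whose intervals excluded 1 were common. Abundant genes have narrow counting intervals, and the part of this in the shares below was not tested. The interval lay above 1 in 26 members (35.6%, against 25.8% of all measured genes) and below 1 in 16 (21.9%, against 24.9%). Among genes with at least 100 counts, the interval lay above 1 in 36.6% of members and 30.1% of all genes, and below 1 in 21.1% and 26% of them. Ratios below 1, with no regard to the interval, were found in 39.7% of members and 49.7% of all measured genes. All measured members of the HSP90, HSP60 and HSP10, small heat shock protein and CCT families, grouped by symbol, had ratios above 1. However, the intervals of both genes in the small heat shock protein group and of 4 of 7 CCT genes held 1. In DNAJB 8 of 10 ratios were below 1. The difference between families was not tested. Cct6a, at 1.02, was at 0.998 under upper quartile scaling.

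**Figure D2:**
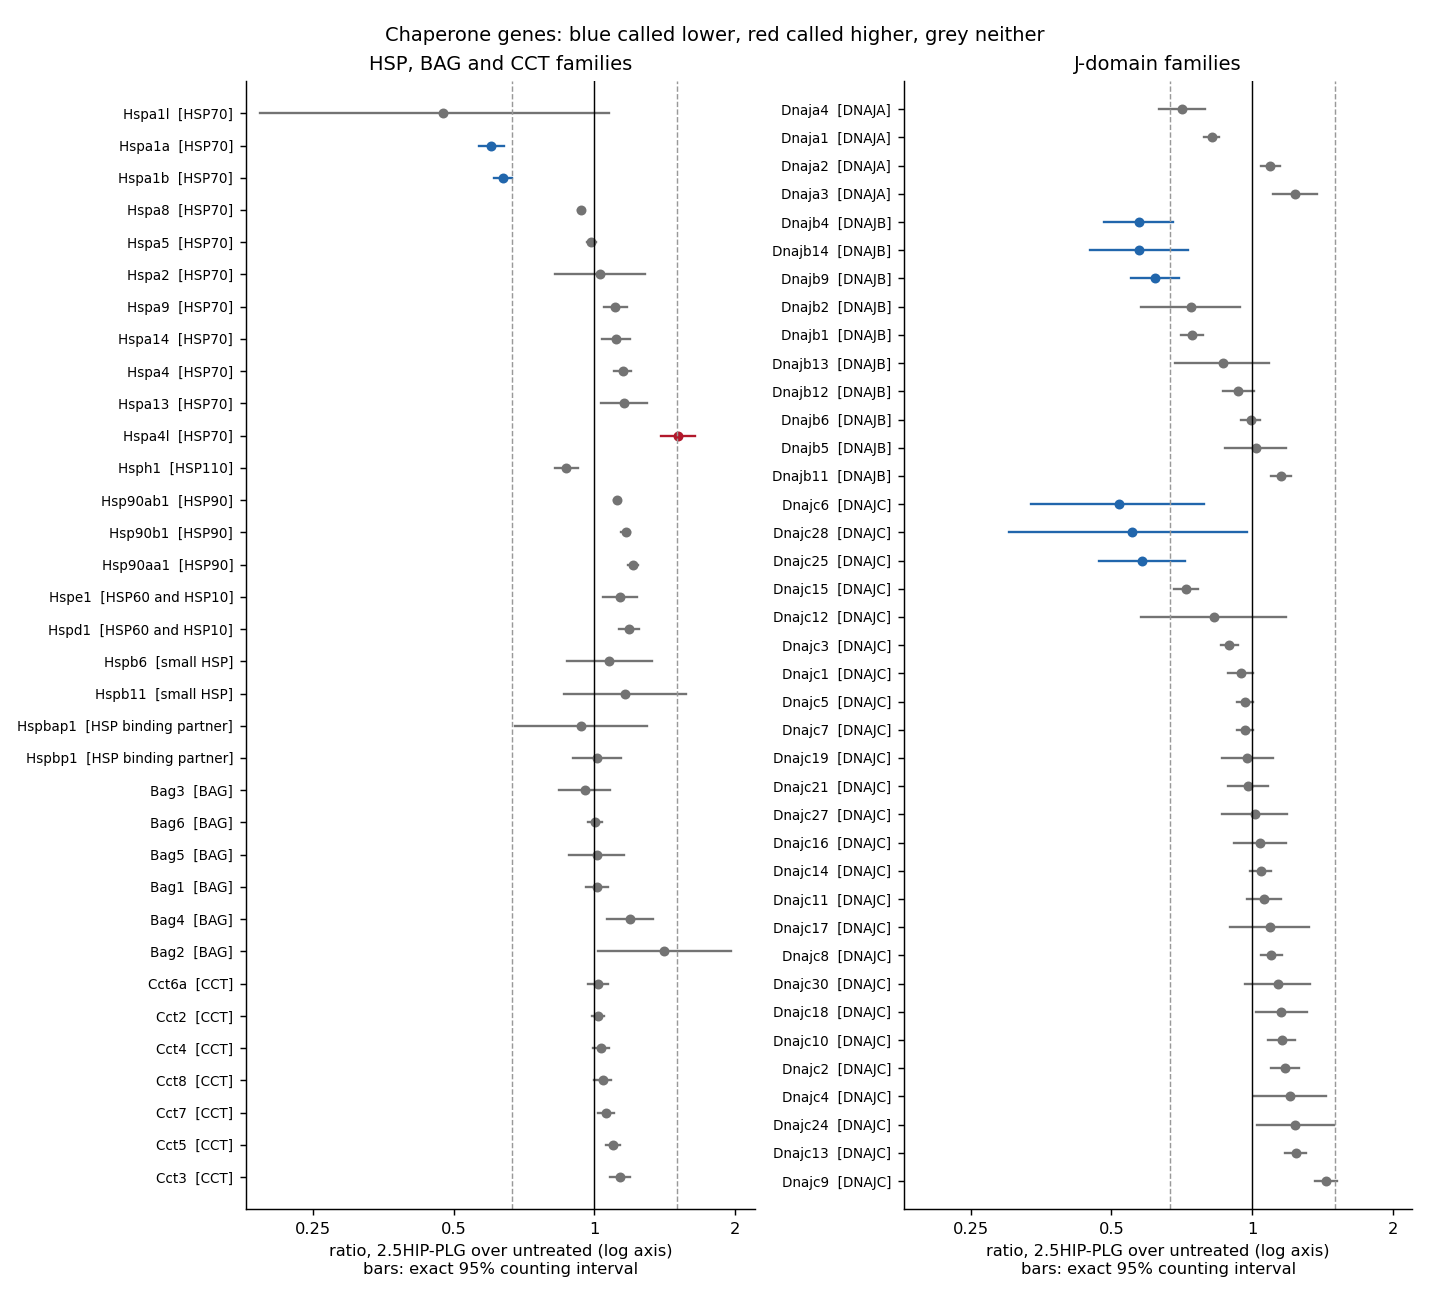
Ratio of 2.5HIP-PLG over Untreated for each of the 73 measured members (points, log axis) with exact 95% counting intervals (bars), grouped by family, with dashed lines at the 1.5-fold size. The 8 members called lower are blue, Hspa4l is red as the member called higher, and the CCT subunits lie close together just above 1.

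Of 11 measured HSP70 genes, 2 (18.18%) were called lower after 2.5HIP-PLG, the inducible Hspa1a and Hspa1b, and 1 (9.09%) higher, Hspa4l. Of all measured genes 9.42% were lower and 5.32% higher. Hspa1a fell from 3064 untreated counts to 1586 in the 2.5HIP-PLG library, a ratio of 0.602 (0.566 to 0.640). Hspa1b had 2869 and 5230 counts, a ratio of 0.638 (0.609 to 0.668). Since reads of this pair are divided by estimation, their summed counts are the firmer value, 4455 and 8294, with a ratio of 0.625 (0.602 to 0.648).

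Hspa8, the constitutive cytosolic HSP70 known as HSC70, was the member with most counts. It had 45082 untreated counts and 36285 after 2.5HIP-PLG, a ratio of 0.936 (0.923 to 0.949). The inducible pair therefore made up 10.9% of cytosolic HSP70 counts (Hspa1a, Hspa1b, Hspa1l, Hspa2 and Hspa8) after 2.5HIP-PLG (exact binomial interval 10.6 to 11.2) and 15.5% without (15.2 to 15.8). This share does not depend on how the libraries are scaled. Within the pair, Hspa1a held 35.6% (34.2 to 37.0) and 36.9% (35.9 to 38.0), intervals that overlap. Hspa1l, a relative in the same gene cluster, had the lowest ratio of any measured member, 0.476, but only 9 and 22 counts, and its interval of 0.193 to 1.08 held 1. Hspa2 had 153 and 173.

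Hspa4l, an HSP110-like exchange factor despite its Hspa symbol, was the single member called higher. It had 1298 and 1001 counts, a ratio of 1.51 (1.39 to 1.64), at the edge of the size rule. Its ratio was 1.495 with library totals and 1.48 with upper quartile scaling, and the call was lost. Its relative Hspa4 had 4393 and 4441 counts (1.15, 1.10 to 1.2), and Hsph1, the inducible HSP110, had 2130 and 2845 (0.870, 0.823 to 0.921). The exchange factors of this class thus had intervals on both sides of 1.

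The organelle HSP70 genes, and Hspa14 outside the organelles, differed by small amounts. Hspa5, which encodes the ER chaperone BiP, had 14176 and 16723 counts, and its interval held 1 (0.986, 0.964 to 1.01). Hspa9, mortalin of the mitochondrial matrix, had 2523 and 2645 counts (1.11, 1.05 to 1.17). Hspa13, a microsomal HSP70, had 613 and 616 (1.16, 1.03 to 1.3). Hspa14, which works at the ribosome with Dnajc2, had 1627 and 1699 (1.11, 1.04 to 1.19), and Dnajc2 itself 1708 and 1691 (1.17, 1.10 to 1.26). Exons of Hspa14 overlap those of Gm45902 (231 and 292 counts) on the same strand. The distant relatives Hspa12a (7 and 4 counts) and Hspa12b (7 and 7) were not measured. Summed over 13 genes, HSP70 had 65546 and 80707 counts and a ratio of 0.944 (0.935 to 0.954), and the median log2 ratio of its 11 measured genes was 0.04, on the other side of 0. Without Hspa8, Hspa1a, Hspa1b and the other genes whose counts were not whole, the summed ratio was 1.05.

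HSP90 genes lay above 1 in all 3 members, none of them past the 1.5-fold size. Hsp90ab1, the constitutive cytosolic form, had 31804 and 33134 counts (1.12, 1.10 to 1.13). Hsp90aa1, the inducible cytosolic form, had 11714 and 11264 (1.21, 1.18 to 1.24). Hsp90b1, the ER form GRP94, had 14995 and 14942 (1.17, 1.14 to 1.19). The family sum had a ratio of 1.15 (1.13 to 1.16) and stayed above 1 under each scaling tried, the lowest being 1.125 with upper quartile factors. Hsp90aa1 took 26.9% of cytosolic HSP90 counts after 2.5HIP-PLG (26.5 to 27.3) and 25.4% without (24.97 to 25.8). The inducible form thus had the larger ratio of the cytosolic pair, unlike in HSP70.

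Mitochondrial HSP60 and HSP10, whose genes share the promoter stretch shown above, had similar ratios. Hspd1 had 3410 and 3347 counts (1.18, 1.13 to 1.24). Hspe1 had 1131 and 1159 (1.14, 1.04 to 1.23). Exons of the pair overlap on opposite strands and strand use is not stated, so a read there may belong to either gene.

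Small heat shock proteins were scarce. Hspb1 (HSP27), Hspb3 and Hspb8 had 0 counts in both libraries, which allows up to 0.133 CPM (counts scaled to library size) after 2.5HIP-PLG and 0.115 without. Hspb2 (0 and 1 counts), Hspb7 (4 and 0) and Hspb9 (1 and 8) were not measured. The 2 measured genes of this group, formed by symbol and not by protein structure, were Hspb6 and Hspb11. Hspb6 had 176 and 190 counts (1.08, 0.872 to 1.33), and Hspb11 had 92 and 92 (1.16, 0.861 to 1.57). Both intervals held 1, and Hspb6 shares exon sequence with Proser3 and Lin37 on the other strand.

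Of 45 J-domain genes 39 were measured, more than all other members together, and 6 (15.38%) were called lower and 0 higher, beside 9.42% and 5.32% of all measured genes. In the DNAJA family, Dnaja1, a cytosolic partner of HSP70, had 4836 and 6871 counts (0.818, 0.789 to 0.849). Dnaja4 had 480 and 788 (0.708, 0.631 to 0.794), just short of the size rule. Dnaja2, the other general cytosolic partner, had 3709 and 3944 (1.09, 1.05 to 1.14), and mitochondrial Dnaja3 (Tid1) had 683 and 643 (1.24, 1.11 to 1.38). No DNAJA gene was called, and the 4 intervals were divided evenly about 1.

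Of 10 measured DNAJB genes, 3 were lower and 0 higher, beside 9.42% and 5.32% of all genes, and the median log2 ratio was -0.32. Dnajb4, a close cytosolic relative of Dnajb1, had 208 counts after 2.5HIP-PLG and 423 without (0.572, 0.482 to 0.677). Dnajb14, an ER membrane protein, had 105 and 213 (0.573, 0.449 to 0.727). Dnajb9 (ERdj4), a partner of BiP that the unfolded protein response induces, had 433 and 811 (0.621, 0.551 to 0.698). These genes thus differed by amounts like those of Hspa1a and Hspa1b.

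Dnajb1 (HSP40), the inducible partner of HSP70, had 2163 and 3383 counts, a ratio of 0.743 (0.704 to 0.785) whose interval excluded 1 while its size was under the rule. It made up 19.9% of DNAJB counts after 2.5HIP-PLG (19.1 to 20.6) and 24.5% without (23.7 to 25.2). Dnajb2 had 112 and 176 counts (0.740, 0.579 to 0.943). The abundant Dnajb6, which restrains protein aggregation, had 3166 and 3707 (0.993, 0.947 to 1.04). Dnajb11 (ERdj3), a soluble BiP partner, stood on the other side with 3060 and 3092 (1.15, 1.09 to 1.21). The intervals of Dnajb5, Dnajb12 and Dnajb13 held 1, and Dnajb13 overlaps exons of the abundant Ucp2. Dnajb3 (5 and 0 counts), Dnajb7 (2 and 3) and Dnajb8 (0 and 0) were not measured.

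DNAJC, the largest family, had 25 of 28 genes measured, of which 3 were lower and 22 neither, beside 9.42% lower among all genes. The family median was 0.06 on the log2 scale. The lower genes were all of low counts. Dnajc6, the clathrin uncoating factor auxilin, had 34 and 76 counts (0.520, 0.337 to 0.789). Dnajc25 had 135 and 270 (0.581, 0.469 to 0.717). Dnajc28 had 19 and 40 (0.552, 0.302 to 0.976), and this call was lost with a 99% interval.

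Dnajc15, a mitochondrial inner membrane protein also called MCJ that restrains respiration, was better covered. It had 1814 and 2926 counts, a ratio of 0.721 (0.679 to 0.765), short of the size rule. Dnajc3 (P58IPK), an ER regulator, had 3874 and 5048 (0.892, 0.855 to 0.931). At the other end Dnajc9, a histone chaperone, had 3189 and 2581 counts and a ratio of 1.44 (1.36 to 1.51), just under the size for a call. Dnajc13, an endosomal protein, had 3043 and 2855 (1.24, 1.18 to 1.31), and Dnajc10 (ERdj5), a reductase of the ER, had 1756 and 1766 (1.16, 1.08 to 1.24).

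The most abundant DNAJC gene by counts was Dnajc5, the cysteine string protein, with 4517 and 5446 counts (0.964, 0.927 to 1.00). Dnajc7 followed with 4299 and 5178 (0.965, 0.927 to 1.01). Dnajc8 had 2815 and 2982 (1.10, 1.04 to 1.16), and Dnajc4, Dnajc18 and Dnajc24 also had intervals above 1. In the other measured genes of the family, Dnajc1, Dnajc11, Dnajc12, Dnajc14, Dnajc16, Dnajc17, Dnajc19, Dnajc21, Dnajc27 and Dnajc30, the interval held 1. Dnajc5b, Dnajc5g and Dnajc22 had 0 counts in both libraries.

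BAG cochaperones were alike in the 2 libraries apart from 2 small differences. Bag6, which guards tail-anchored proteins, had 6645 and 7700 counts (1.00, 0.971 to 1.04). Bag1 had 2419 and 2780 (1.01, 0.958 to 1.07). Bag3, an HSF1 target that routes clients to autophagy, had 451 and 550 (0.953, 0.840 to 1.08), and Bag5 had 406 and 467. The intervals lay above 1 in Bag2, with 86 and 71 counts (1.41, 1.02 to 1.96), and in Bag4, with 607 and 592 (1.19, 1.06 to 1.34). The family median log2 ratio was 0.02 and turned to -0.01 with upper quartile scaling. Hspbp1, another exchange factor for HSP70, had 529 and 606 counts (1.02, 0.902 to 1.14), and Hspbap1 had 71 and 88.

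CCT subunits, which form a ring together with Tcp1, lay within a narrow band. Their ratios ran from 1.02 in Cct6a to 1.13 in Cct3, and none was called. Cct2 had 7899 and 9004 counts (1.02, 0.990 to 1.05), Cct4 4344 and 4890 (1.03, 0.991 to 1.08), Cct6a 3111 and 3556 (1.02, 0.969 to 1.07) and Cct8 4231 and 4726 (1.04, 0.998 to 1.09), with intervals that held 1. In Cct3, with 3085 and 3166 counts (1.13, 1.08 to 1.19), Cct5, with 6126 and 6500 (1.10, 1.06 to 1.14), and Cct7, with 4611 and 5059 (1.06, 1.02 to 1.10), the interval lay above 1. Tcp1, the remaining subunit, which the name rule leaves out, had 4940 and 6074 counts (0.946, 0.911 to 0.982). Cct6b (4 and 6 counts) and Cct8l1 (0 and 1) were not measured.

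Levels between genes were compared as CPM per kilobase of annotated exon. Hsp90ab1 (423 untreated, 472 after 2.5HIP-PLG) and Hspa8 (401 and 375) stood highest in both libraries. Without treatment Hspa5 (151) came before Hsp90b1 (142), and after 2.5HIP-PLG Hsp90b1 (165.4) came before Hspa5 (149). Cct2 and Hsp90aa1 followed in both. Among measured members Hspa1b ranked 9 of 73 without treatment (71.4 CPM per kilobase) and 16 after 2.5HIP-PLG (45.5), and Hspa1a ranked 19 (39.5) and 28 (23.8). Dnajc9 went the other way, from rank 16 (41.5) to rank 10 (59.7). Per length, the 8 CCT subunits with Tcp1 spanned 19.01 to 134.7 without treatment. Exon length here joins all annotated isoforms, so genes with long rare exons have understated levels.

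**Figure D3:**
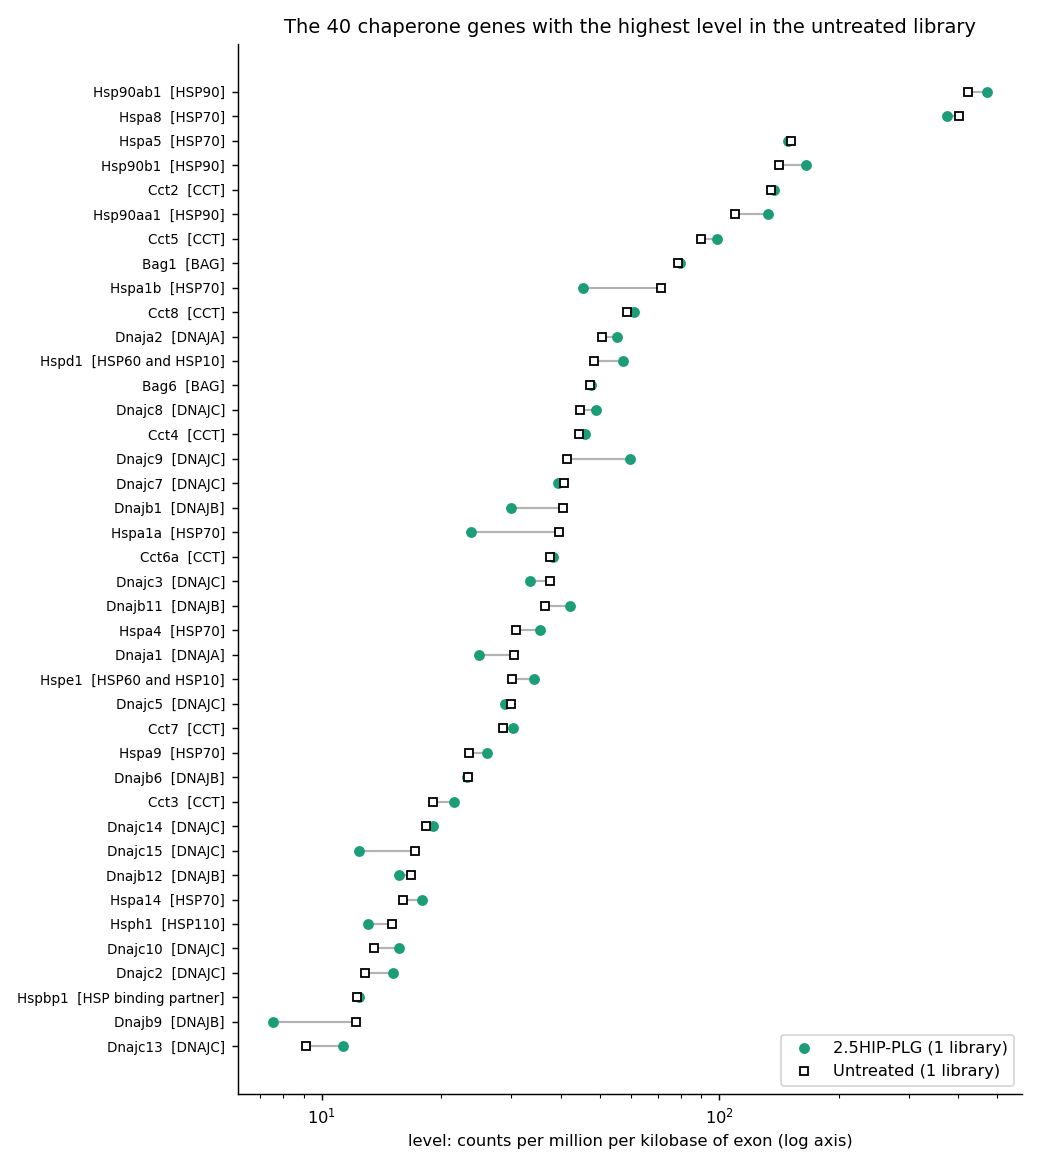
Level in CPM per kilobase of exon (log axis) of the 40 members highest in the untreated library, with squares for Untreated and circles for 2.5HIP-PLG, 1 library each. Hspa1b, Hspa1a, Dnajb1, Dnajc15 and Dnajb9 have circles well to the left of their squares, and Dnajc9 has its circle to the right.

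Grouped by regulation and compartment, the list of stress-inducible genes had intervals on both sides of 1. Of 12 genes taken as HSF1 targets 11 were measured, with 2 called lower and 0 higher and a median of -0.10 on the log2 scale. The shares over all measured genes, 9.42% lower and 5.32% higher, apply to this count and to those by compartment, which rest on few genes. The intervals of Hspa1a, Hspa1b, Dnajb1, Dnaja1, Hsph1 and Hspa8 lay below 1. Those of Hsp90aa1, Hsp90ab1, Hspd1 and Hspe1 lay above it, with Bag3 on neither side. This list takes in Hspa8 and Hsp90ab1, described above as constitutive, and the mitochondrial Hspd1 and Hspe1. Of the genes called inducible above, Hspa1a, Hspa1b, Dnajb1 and Hsph1 lay below 1 and Hsp90aa1 above it.

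Among 13 measured ER members, 3 were lower (Dnajb9, Dnajb14 and Dnajc25) and 0 higher, with a median of -0.02. The ER stress element genes Hspa5, Hsp90b1 and Dnajc3 had ratios of 0.986, 1.17 and 0.892, all within the size bounds. Of 10 mitochondrial members, 1 was lower (Dnajc28) and 0 higher, with a median of 0.17.

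Partner genes outside the name rule were taken from lists of heat shock factors, cochaperones, relatives, prefoldins and ER folding genes. Of 61 measured of 65 rows, 2 (3.28%) were higher and 0 lower, beside 5.32% and 9.42% of all measured genes. The median of these 61 rows was 0.03 on the log2 scale and turned to -0.003 under upper quartile scaling. The same shares over all genes apply to the counts of single partner lists below. St13 (HIP), which stabilises the ADP state of HSP70, had 3684 and 2589 counts (1.65, 1.57 to 1.74). Hsf4 had 189 and 138 (1.59, 1.27 to 2.0). Hsf1, the main regulator of the heat shock response, had 1078 and 1455 (0.861, 0.795 to 0.933), and Hsf2 had 164 and 271 (0.704, 0.576 to 0.857). Hsbp1, which binds and restrains HSF1, had 1481 and 1352 (1.27, 1.18 to 1.37).

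The HSP90 cochaperones Cdc37, with 5297 and 6667 counts (0.924, 0.891 to 0.958), Fkbp5, with 4411 and 4872 (1.05, 1.01 to 1.10), and Stip1, with 3979 and 4548 (1.02, 0.975 to 1.06), differed little. Trap1, the mitochondrial HSP90, had 1602 and 1995 (0.934, 0.874 to 0.998), and Hyou1, the ER exchange factor, had 3883 and 4643 (0.972, 0.932 to 1.02). In the ER list of 17 measured rows 0 were called, with a median of 0.10. Its most abundant genes were Calr, with 17862 and 18391 counts (1.13, 1.11 to 1.15), and Pdia3, with 13895 and 15584 (1.04, 1.01 to 1.06). In that list 9 intervals lay above 1 and 5 below it. Those below were of Ero1l (0.764), Ddit3 (0.765), Edem1, Atf4 (0.883) and Herpud1 (0.907). Those above were of Calr, Canx, Pdia3, Pdia4, Pdia6, P4hb, Sdf2l1, Creld2 and Atf6. Pdia6, a disulfide isomerase, had 4311 and 3983 (1.26, 1.21 to 1.31), and Edem1, which acts in the degradation of misfolded glycoproteins, had 4922 and 7265 (0.788, 0.760 to 0.817). Among the 9 prefoldin and TRiC partner genes 0 were called, with a median of 0.12. Pfdn5, a prefoldin subunit that hands actin and tubulin to the CCT ring, had 3636 and 3894 counts (1.09, 1.04 to 1.14), and Txndc9, which binds that ring, had 1359 and 1577 (1.00, 0.931 to 1.08).

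Of 17 immediate early genes, which cells induce within minutes of stimulation or handling, 8 were called lower, 0 higher and 9 neither, beside 9.42% of all measured genes lower. The interval lay below 1 in 15 of them, beside 24.9% of all genes, and the median log2 ratio was -0.57. The list was chosen after its values were seen, so these shares are not an independent comparison with all genes. Jun had 4027 counts after 2.5HIP-PLG and 8443 without (0.555, 0.534 to 0.576), Zfp36 had 5329 and 9960 (0.622, 0.602 to 0.643), and Fosb had 1491 and 3903 (0.444, 0.418 to 0.472). Klf6, Ppp1r15a, Ier3, Rhob and Atf3 were also lower, Atf3 with 3 and 40 counts. Junb, the most abundant of the list by counts, had 11494 and 19473 (0.686, 0.671 to 0.702), short of a call, and Jund had 9227 and 11412 (0.940, 0.915 to 0.966). Egr1 was the gene with an interval above 1, with 2669 and 2432 counts (1.28, 1.21 to 1.35), and that of Nr4a1, with 1337 and 1446 (1.08, 0.997 to 1.16), held 1. The part of handling or of stimulation in the lower Hspa1a and Hspa1b counts was not tested.

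**Figure D4:**
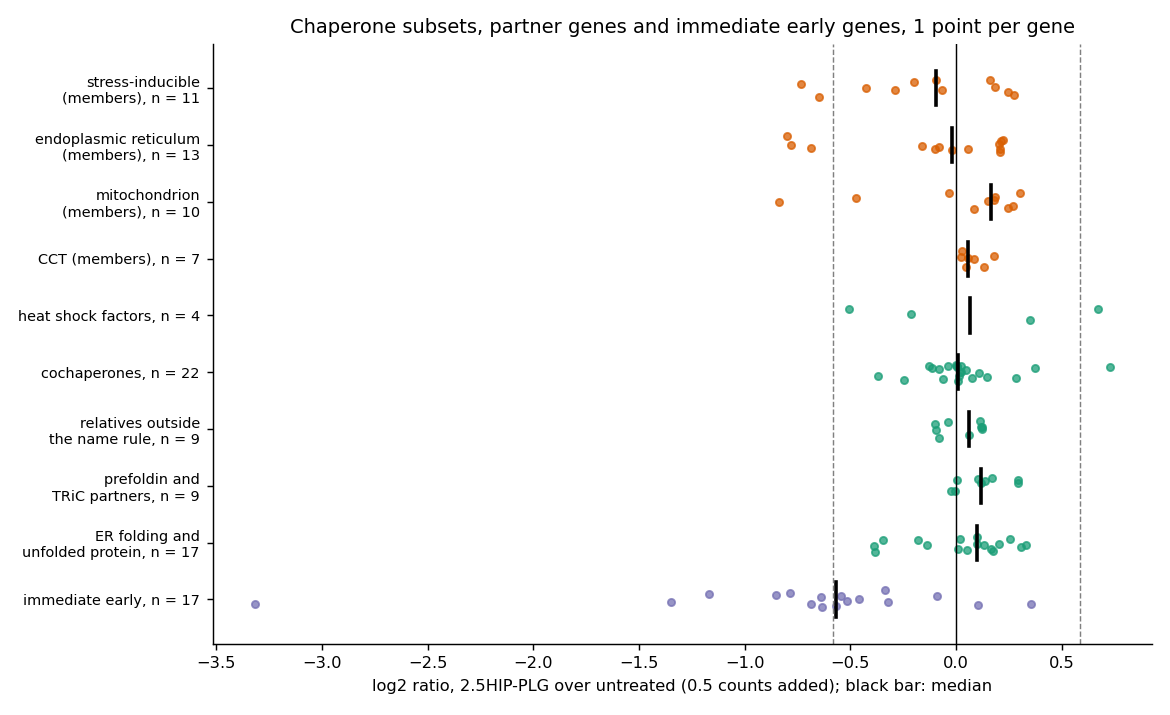
Log2 ratio of 2.5HIP-PLG over Untreated (0.5 counts added), 1 point per measured gene, for chaperone subsets (orange), partner gene lists (green) and immediate early genes (purple), with black bars at the medians and dashed lines at the 1.5-fold size. The CCT subunits cluster just above 0, and the members listed as stress-inducible spread to both sides. Of the immediate early genes, a list chosen after its values were seen, 15 of 17 lie below 0 with a median of -0.57.

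Markers of other cell types were low in both libraries, although several were called. Of the B cell genes, Ms4a1 was at 0 in both, Cd79a at 2 and 3 counts and Cd79b at 5 and 12. Of the CD8 genes, Cd8a was at 0 and 9 counts and Cd8b1 at 304 and 272. The 4 macrophage markers summed to 277 and 203 counts, with Lyz2 (101 and 47) and Csf1r (50 and 27) higher. Cd68 (107 and 96) and Adgre1 (19 and 33) were called neither. The 4 dendritic cell markers summed to 355 and 701, with Itgax (108 and 320) lower. These myeloid lists thus lay on both sides of 1.

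Granulocyte genes were the markers with the largest ratios. The neutrophil list summed to 288 and 83 counts, with Mpo (237 and 57) and Elane (31 and 9) higher. Its other genes, S100a8 (10 and 8) and S100a9 (10 and 9), had similar counts in both libraries but too few to be measured. The mast cell and basophil list summed to 369 and 90, with Prss34, Mcpt8 and Cpa3 higher. Stromal markers had 78 and 56 counts, with Col1a1 (39 and 14) higher and Pdgfrb (34 and 39) neither. Natural killer markers had 75 and 148, with Ncr1 and Klrb1c lower, and erythroid markers 938 and 1115 with no call. In each of these lists the summed level was at most 42.7 CPM. The part of these cells in the chaperone results was not tested.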

How the data were processed

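RNA was sequenced from 2 libraries, 1 per group, with the group taken from each sample's treatment label. Per the submitters' processing notes, STAR aligned the reads to GRCm38 and RSEM 1.3.1 estimated gene counts. Kits were RNeasy Plus Mini and NuGen Universal Plus mRNA, per the labels' protocols. Neither STAR's version nor the annotation or strand use of the counting is named in the sources used here. The authors deposited expected counts per gene, estimates that divide shared reads among genes and are not scaled between libraries. Not whole were 11.1% of 2.5HIP-PLG rows, 11.8% of Untreated rows and 31 of the 73 measured members. Of the measured members 30 share exon sequence with another gene, and their counts are uncertain.

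Counts were rounded and scaled by library total times a TMM factor (0.9959 for 2.5HIP-PLG, 1.0041 for Untreated), computed over all rows with edgeR 4.0.16 under R 4.3.3. Ratios had exact conditional binomial (Clopper-Pearson) 95% intervals, computed in Python 3.11.15 with scipy 1.17.1, numpy 2.4.6 and pandas 2.3.3. No test across samples was possible. Reads are not independent molecules, so intervals and the floor of 3 counts cover counting error only. Medians used log2 ratios with 0.5 counts added. One read was worth 0.0445 and 0.0382 CPM. Coordinates and exon lengths came from GENCODE M21, which holds 54495 row IDs, and promoters from RefSeq (250 bases before and 50 after each start).

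Symbols matched the rule when the prefix was followed by at most 2 letters and a digit, which takes in Hspbp1 and Hspbap1. Members and lists were chosen with earlier results of these data known. Members named in full were those called, the 3 with most counts and the measured one with the largest log2 ratio in each family, a set of main chaperones and the CCT subunits. Of other lists, called genes, those with most counts, Hsf1, Tcp1, Trap1 and Hyou1 were named. Hsf2, the ER list genes other than Calr, Pdia3 and Hyou1, the library checks and the immediate early genes were chosen after their values were seen. So were other members and the GAANNTTC search. Some marker genes are not reported here. The calculation was tested on simulated data. As alternatives, libraries were scaled by their totals, by upper quartiles, by DESeq2 1.42.0 size factors or by TMM leaving out the 20 genes with most counts. The count minimum was set to 10, 100 or 0, the ratio to 2 and the interval to 99%. Counts were left unrounded, 2 were added in place of 0.5, or Hspa1a and Hspa1b were summed. Figures were drawn with matplotlib 3.10.9.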

Additional observations from a re-analysis of the deposited data

How the results depend on the processing

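With 1 library per group no replicate could be left out. No paired analysis was possible because each group holds 1 library and no result comes from a test. With library totals 0 members and 0 HSP70 genes were called higher, and the summed ratio of all members moved from 1.02 to 1.01. With upper quartile scaling 0 members and 0 HSP70 genes were higher, and summed ratios were 1.00 over all members (1.002), 0.926 for HSP70, 1.125 for HSP90, 1.006 for DNAJC and 1.03 for CCT. The HSP70 median log2 ratio was 0.15 with a count minimum of 10 and with none. With no minimum 2 members and 1 DNAJB gene were higher, the added one being Dnajb3 on 5 counts. With a minimum of 100, and with a 99% interval, 0 mitochondrial members were lower. At a ratio of 2, 0 members were called either way, so the counts of HSP70 (higher and lower), DNAJB, DNAJC, stress-inducible, ER and mitochondrial genes and of partner genes were all 0, and 3 immediate early genes were lower. With Hspa1a and Hspa1b summed, 1 HSP70 and 1 stress-inducible gene were lower. With only members of whole counts, an alternative chosen after seeing the data, 4 members were lower (0 HSP70, 1 DNAJB), the HSP70 median was 0.18, and summed ratios were 1.01 over all members, 1.05 for HSP70, 1.11 for DNAJA and 0.938 for DNAJC, by construction over fewer genes. No called member changed direction under these settings. Depth limits what can be said of Hspa1l, Dnajc28 and the small heat shock proteins.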
